A study of Mus musculus with 12 samples.

Results

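The genes described here encode the machinery that returns membrane proteins from endosomes to the cell surface or the Golgi: the WASH complex, the COMMD and CCDC subunits of Commander, retromer, the endosomal sorting nexins and their regulators, and actin capping protein. The list held 34 of the 55487 genes in the table, taken by gene symbol. It was drawn up because Washc5 and Commd8 had lower RNA in the hippocampus of mice without USF-1, so the values of these genes in that comparison chose the list and are given below as a description, without a test. Of the 34 genes, 33 had a mean normalised count of at least 10 over all mice and entered the fit across genes, and Commd5 did not.

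WASH activates the Arp2/3 complex on the surface of endosomes, and the branched actin that forms there marks the membrane domains from which receptors leave for recycling. Retromer selects cargo together with sorting nexins and recruits WASH through Washc2, while Commander, a ring of COMMD proteins joined to the CCDC subunits and to the retriever subcomplex, returns another group of cargoes. In neurons these routes carry synaptic receptors, lipoprotein receptors and the receptors that deliver lysosomal enzymes.

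Hippocampal RNA was sequenced from 6 WT mice and 6 littermates without USF-1 (USF-1 KO), known to act on genes through the DNA motif CACGTG, called the E-box. All 12 mice were of strain C57Bl/6JRccHsd and aged 3 to 4 months and were bred from heterozygous parents; the KO is constitutive and not limited to a tissue or cell type. The WT group held 4 females (WT 1 to WT 4) and 2 males (WT 5 and WT 6), and the USF-1 KO group 2 females (KO 1 and KO 2) and 4 males (KO 3 to KO 6). Each mouse gave 1 library, so p-values set a difference against the spread between mice of a genotype, and the number of mice limits the precision. In the main fit that spread includes differences between the sexes, and limma estimates it partly from other genes. A difference in bulk tissue does not tell fewer cells of a type from less RNA per cell. The values are normalised counts, reads per gene scaled by 1 factor for each library.

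The libraries held 21679622 to 32091173 reads on genes. Usf1 itself stood at 1505, 1579, 1583, 1519.8, 842 and 1425 normalised counts in WT 1 to WT 6 and at 141, 138, 117, 163, 148 and 138 in KO 1 to KO 6, so every label of a KO mouse went with a low value and WT 5 stood apart from the other WT mice. The libraries of WT 1 and WT 5 also held 42.3 and 119 times the median summed count of 8 choroid plexus markers. The 8 markers of hippocampal excitatory neurons summed to 175898 to 219925 in WT and to 168858 to 245638 in USF-1 KO mice, with medians of 201406 and 223770; all 8 were higher in the USF-1 KO on the log2 scale, and 0 passed the threshold by limma, with 1 at an unadjusted p under 0.05. The 10 oligodendrocyte markers summed to 87680 to 189767 in WT mice and to 75428 to 115138 in USF-1 KO mice. All 10 were lower in the USF-1 KO on the log2 scale, with a median difference of -0.70. By limma 1 of them passed the threshold and all 10 had an unadjusted p under 0.05, beside 13.5% of all genes tested. The sums of 8 microglia markers ran from 7243 to 9931 in WT and from 6736 to 7690 in USF-1 KO mice. All 8 were lower in the USF-1 KO on the log2 scale, with 0 past the threshold by limma and 5 at an unadjusted p under 0.05. The part of these cell types in the results was not tested, and the values of the mice that bear on it stand beside the genes below.

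Promoter windows of 300 bases, from 250 before to 50 after an annotated gene start, were at hand from RefSeq (build GRCm38.p6) for 26 of the 34 genes; Washc5, Commd2, Commd5, Commd10, Ccdc93, Vps35, Snx2 and Snx27 had no entry. The E-box CACGTG, which reads the same on both strands, occurred in the windows of 10 of these 26 genes (38.5%), against 11.2% of the 12147 genes tested that had an entry and 8.09% of all 27025 genes with one. These genes were Washc1, Washc2 and Washc4 of WASH, Commd3, Commd8, Commd9 and Ccdc22 of Commander, Vps26a of retromer, the sorting nexin Snx5 and the Rab7 regulator Tbc1d5. Commd8 and Vps26a are shown because they were lower in the USF-1 KO, Snx5 because its interval lay below 0 although it did not pass the threshold by limma, and Commd9 because it carries an E-box beside its start and showed a difference near 0. Vps26b, the paralogue of Vps26a, is shown as a window without the E-box. Each is written 5′ to 3′ on the strand of the gene, with CACGTG in capitals; Commd8 lies at chr5:72168140-72168439, Vps26a at chr10:62486756-62487055, Snx5 at chr2:144270523-144270822 and Vps26b at chr9:27030045-27030344, all on the minus strand, and Commd9 at chr2:101886012-101886311 on the plus strand.
Commd8: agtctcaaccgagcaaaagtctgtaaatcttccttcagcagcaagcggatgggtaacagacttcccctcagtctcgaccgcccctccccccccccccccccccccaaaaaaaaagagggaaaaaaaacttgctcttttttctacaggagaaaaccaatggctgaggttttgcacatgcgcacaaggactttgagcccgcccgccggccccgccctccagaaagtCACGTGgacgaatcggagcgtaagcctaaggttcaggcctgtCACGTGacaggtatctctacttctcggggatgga
Vps26a: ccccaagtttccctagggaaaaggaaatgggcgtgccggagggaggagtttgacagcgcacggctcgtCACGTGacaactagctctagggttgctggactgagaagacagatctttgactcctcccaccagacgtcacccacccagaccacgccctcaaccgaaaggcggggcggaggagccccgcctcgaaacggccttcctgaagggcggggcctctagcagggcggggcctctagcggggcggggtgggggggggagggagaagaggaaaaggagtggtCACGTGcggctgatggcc
Snx5: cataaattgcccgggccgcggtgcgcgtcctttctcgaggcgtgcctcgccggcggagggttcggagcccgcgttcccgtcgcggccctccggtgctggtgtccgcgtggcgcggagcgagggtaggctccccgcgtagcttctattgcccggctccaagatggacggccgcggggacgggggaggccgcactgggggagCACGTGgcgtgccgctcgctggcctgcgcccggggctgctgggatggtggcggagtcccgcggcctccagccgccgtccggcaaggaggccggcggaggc
Commd9: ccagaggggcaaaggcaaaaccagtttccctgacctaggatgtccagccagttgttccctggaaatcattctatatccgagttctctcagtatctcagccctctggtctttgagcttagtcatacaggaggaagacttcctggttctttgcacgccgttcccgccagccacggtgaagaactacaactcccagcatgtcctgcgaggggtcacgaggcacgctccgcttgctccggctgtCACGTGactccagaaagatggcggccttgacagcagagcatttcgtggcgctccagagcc
Vps26b: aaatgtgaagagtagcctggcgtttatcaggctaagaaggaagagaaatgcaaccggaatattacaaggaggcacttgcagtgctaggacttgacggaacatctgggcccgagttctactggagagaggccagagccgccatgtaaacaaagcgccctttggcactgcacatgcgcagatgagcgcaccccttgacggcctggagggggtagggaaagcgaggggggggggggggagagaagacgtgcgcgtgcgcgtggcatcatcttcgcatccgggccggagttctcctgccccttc

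Commd8 held an E-box on each side of its start, with their first bases at positions -26 and 17 from it. Vps26a had 2 annotated starts whose windows overlapped, and together they held 3 distinct E-boxes, of which those at -182 and 33 from the upstream start are shown. The E-box of Snx5 began at -50 and that of Commd9 at -10. Counted over all windows, 12 of 15 positions lay within 50 bases of a start, and each of the 10 genes had at least 1 such position. The wider motif CANNTG was present in 88.5% of the 26 genes against 68.2% of genes tested, and CTCGAG, a palindrome of the same letters in another order, in 7.69% against 6.68%. These are matches of letters in a window and no measurement of binding.

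**Figure D1:**
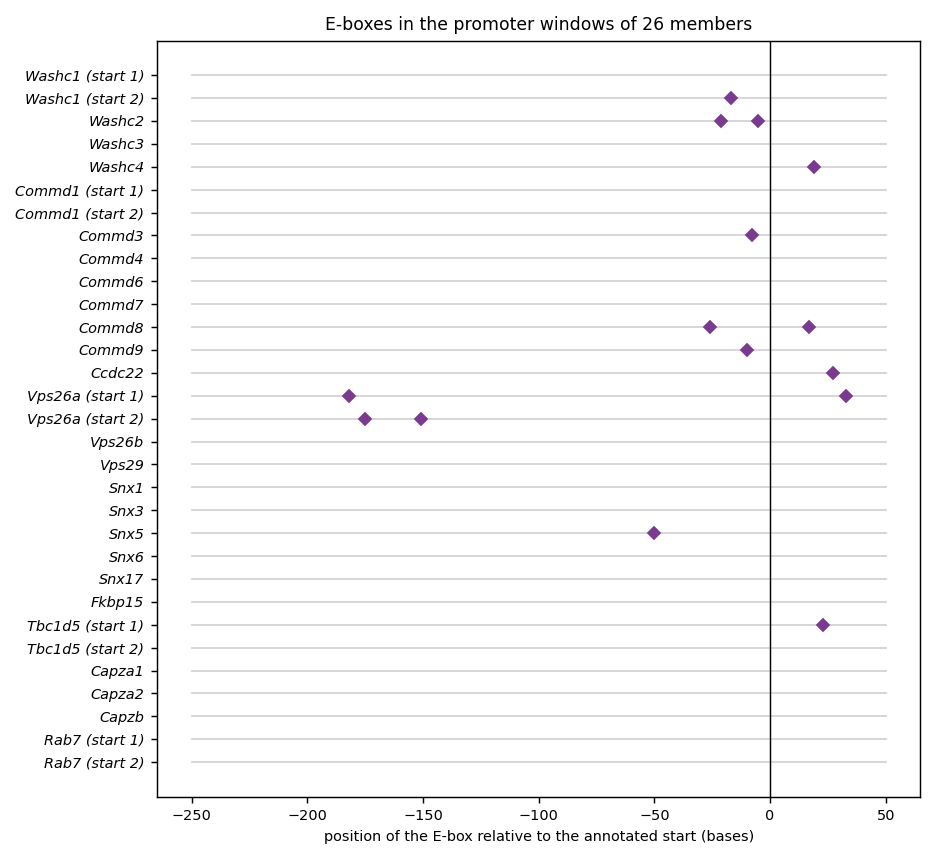
Positions of CACGTG (diamonds) in the 300-base promoter windows (grey lines) of the 26 genes with an entry, in bases from the annotated start (vertical line); genes with 2 annotated starts have 2 lines. Most diamonds lie within 50 bases of the start, and 10 of the 26 genes carry at least 1.

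Washc5 encodes strumpellin, a scaffold subunit of the WASH complex, on chromosome 15 (chr15:59331997-59374167, minus strand, GRCm38). It stood at 1031, 1038, 1058, 1031, 1037 and 1025 normalised counts in WT 1 to WT 6. In KO 1 to KO 6 it stood at 824, 836, 832, 802, 902 and 838. The WT mice lay in a narrow band, every KO mouse lay below it, and KO 5 was the nearest to it. The mean was 1037 ± 11.7 in WT and 839 ± 33.5 in USF-1 KO mice (SD, n = 6 each), 80.9% of the WT mean and a log2 difference of -0.31 ± 0.0351 (SE). Females had means of 1039.6 in WT and 830.0 in USF-1 KO, and males 1031 and 843, so the difference had a like size in either sex.

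The other 4 WASH subunits did not pass the threshold of an adjusted p under 0.05 (limma, Benjamini-Hochberg over 18221 genes). Washc1, the subunit that activates Arp2/3, had a log2 difference of 0.05 (95% interval -0.04 to 0.14), and Washc2, the long-tailed subunit that binds retromer and Commander, one of 0.01 (-0.09 to 0.10). Washc3 had a difference of 0.04 (-0.13 to 0.21). Washc4, which contacts Washc5 within the complex, had one of -0.11 (-0.25 to 0.03), with all 6 KO mice under the WT mean. Its means in WT and USF-1 KO mice were 1068 and 991 in females, and 907 and 909 in males. The WT mean comes from 4 females and 2 males and the KO mean from 2 females and 4 males, and the part of sex in this difference was not tested. As a share of Washc2 in the same mouse, the normalised count of Washc5 was 28.1% to 33.5% in WT and 23.7% to 26.8% in USF-1 KO mice. As a share of Washc4 it was 88.4% to 122% in WT and 83.7% to 97.5% in USF-1 KO mice, and the groups overlapped. Washc5 chose the list and by itself had no overlap, so nothing further is read from these shares.

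Commd8 encodes a COMMD subunit of the Commander ring, on chromosome 5 (chr5:72156575-72168189, minus strand). It stood at 944, 907, 948, 909, 929.9 and 958 normalised counts in WT 1 to WT 6. In KO 1 to KO 6 it stood at 697, 775, 817, 707, 711 and 732. As for Washc5, every KO mouse lay below every WT mouse, and the KO mice were the more widely spread. The mean was 933 ± 21.4 in WT and 739.9 ± 46.7 in USF-1 KO mice (SD, n = 6 each), 79.3% of the WT mean and a log2 difference of -0.34 ± 0.0440 (SE). Means in females were 927 and 736, and those in males 944 and 742, for WT and USF-1 KO in that order.

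None of the other 8 COMMD genes in the fit passed the threshold by limma, edgeR or DESeq2, or reached an unadjusted p under 0.05 by limma. Their log2 differences ran from -0.07 for Commd3 (95% interval -0.16 to 0.02) to 0.04 for Commd6 (-0.09 to 0.17). Commd4, the partner that sits beside Commd8 in the ring, had a difference of -0.04 (-0.14 to 0.05). The normalised count of Commd8 was 107% to 123% of that of Commd4 in WT mice and 84.6% to 101% in USF-1 KO mice. Commd8 chose the list and by itself had no overlap, so nothing further is read from this share. Ccdc22 and Ccdc93, the coiled-coil subunits that tie the ring to retriever and WASH, had differences of -0.06 (-0.41 to 0.29) and -0.11 (-0.22 to 0.00). Ccdc22 was uncertain, since 84.6% of the 75-base stretches of its transcripts also occurred in other genes, mostly in the overlapping transcript Gm36995, and the same was true of 60.5% of those of Commd5, which share the readthrough gene Gm49527. Commd5 had means of 1.92 and 1.38 normalised counts in WT and USF-1 KO mice and is given no difference.

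**Figure D2:**
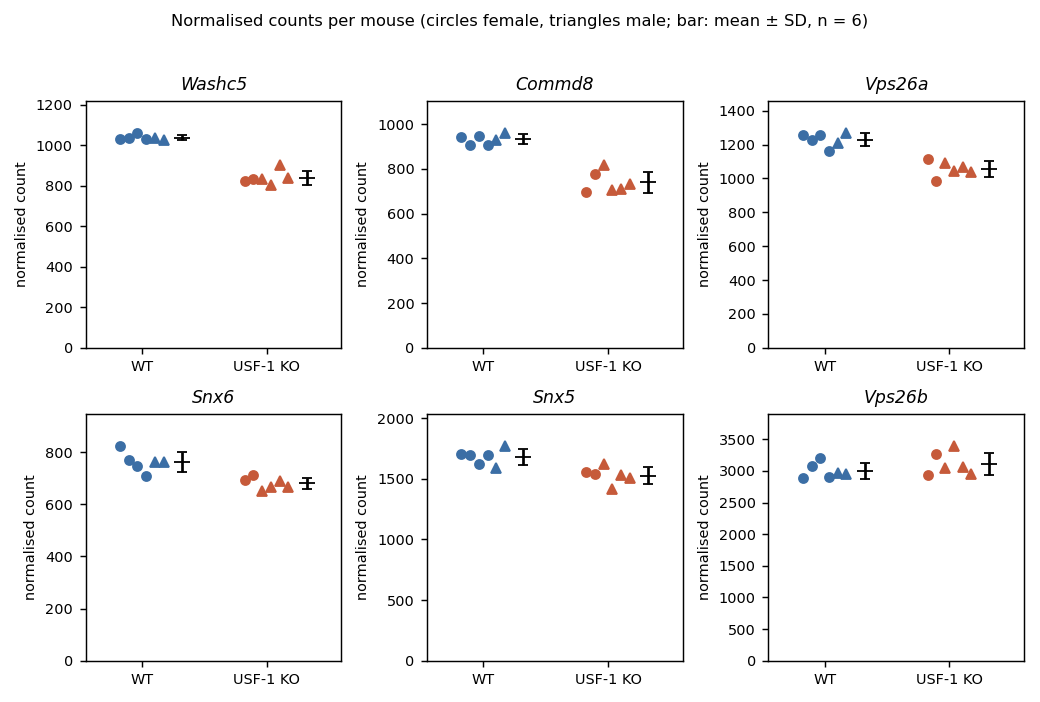
Normalised counts of 6 genes in each mouse, with WT in blue and USF-1 KO in red, circles for females and triangles for males, and a bar for the mean ± SD of 6 mice; each axis starts at 0. In Washc5, Commd8 and Vps26a every KO mouse lies below every WT mouse, in Snx6 and Snx5 the groups overlap, and Vps26b shows no such shift.

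Vps26a was the only other gene of the list to pass the threshold. It encodes an arrestin-fold subunit of retromer that helps to bind cargo and sorting nexins, on chromosome 10 (chr10:62455235-62486805, minus strand). WT 1 to WT 6 had 1259, 1227, 1256, 1163, 1208 and 1266 normalised counts. KO 1 to KO 6 had 1117, 984, 1092, 1043, 1070.2 and 1040.0, all below the lowest WT mouse, as in 1.08% of all genes tested. The means were 1229.8 ± 39.4 and 1058 ± 46.7 (SD, n = 6 each), and the log2 difference was -0.22 ± 0.0388 (SE, adjusted p = 0.0173 by limma over 18221 genes). The list was chosen with this comparison known, so the p-value is not independent evidence. The difference was -0.21 with an adjusted p of 0.0578 without WT 1, and -0.22 with an adjusted p of 0.0927 by limma without both choroid-rich WT libraries, so its size held and the call did not; edgeR and DESeq2 called it as well.

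Vps26b, the paralogue that takes the same place in retromer, had 2891, 3075, 3211, 2901, 2973 and 2949 normalised counts in WT 1 to WT 6 and 2943, 3269, 3048, 3388, 3066 and 2957 in KO 1 to KO 6. The groups overlapped, and the log2 difference was 0.05 (95% interval -0.04 to 0.14, adjusted p = 0.642 by limma). Within each mouse the count of Vps26a was 39.1% to 43.5% of that of Vps26b in WT and 30.1% to 38.0% in USF-1 KO. The remaining retromer subunits, the scaffold Vps35 and the small subunit Vps29, had differences of 0.01 (-0.08 to 0.09) and 0.08 (-0.08 to 0.24). Retromer thus had 1 of 4 genes lower and 0 higher past the threshold by limma, beside 0.741% and 0.159% of all genes tested. With 4 genes nothing is read from this count.

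Of the 7 endosomal sorting nexins, 0 passed the threshold by limma and 2 had an unadjusted p under 0.05, beside 13.5% of all genes tested. These were Snx6 and Snx5, which share a place in the membrane-bending heterodimers that carry cargo from endosomes to the Golgi. Snx6 stood at 822, 769.9, 746, 707, 762 and 762 normalised counts in WT 1 to WT 6 and at 694, 710.2, 649.8, 667, 690.4 and 667 in KO 1 to KO 6. Only KO 2 overlapped the WT range, lying just above WT 4. The log2 difference was -0.16 (95% interval -0.25 to -0.07, adjusted p = 0.0961 by limma and 0.0239 by DESeq2). Snx5 stood at 1702, 1699, 1618, 1692, 1587 and 1767 in WT 1 to WT 6 and at 1554, 1536, 1620.0, 1412, 1534 and 1502 in KO 1 to KO 6. Here KO 3 alone reached into the WT range, and the log2 difference was -0.14 (-0.22 to -0.05, adjusted p = 0.128 by limma and 0.0348 by DESeq2). Snx5 also shares 206 exon bases with Mgme1 on the opposite strand, and whether counting used the strand is not given in the sources used here.

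Snx1 and Snx2, the partners in those heterodimers, had differences of -0.07 (-0.19 to 0.04) and -0.02 (-0.11 to 0.07). Snx3, the adaptor for another retromer route, had one of 0.03 (-0.05 to 0.10). Snx27, which brings PDZ-binding receptors to retromer, had a difference of -0.01 (-0.12 to 0.11), and Snx17, which brings NPxY-bearing receptors to retriever, one of 0.04 (-0.05 to 0.13). In each of these 5 genes the groups overlapped.

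The regulators and partners were Tbc1d5, which switches off Rab7, Rab7 itself, which recruits retromer, and Fkbp15, which binds WASH. Tbc1d5 had a log2 difference of -0.13 (95% interval -0.23 to -0.03, adjusted p = 0.231 by limma), with all 6 KO mice below the WT mean and the groups overlapping. Rab7 had one of 0.04 (-0.03 to 0.11) and Fkbp15 one of -0.03 (-0.11 to 0.04). Of the actin capping genes, which end filament growth and are bound by WASH, Capza2 and Capzb had differences of 0.06 each (-0.06 to 0.19 and -0.05 to 0.16). Capza1 had one of -0.15 (-0.32 to 0.01), and its count is uncertain because 57.8% of its 75-base stretches recur elsewhere, mostly in the pseudogene Gm3608.

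**Figure D3:**
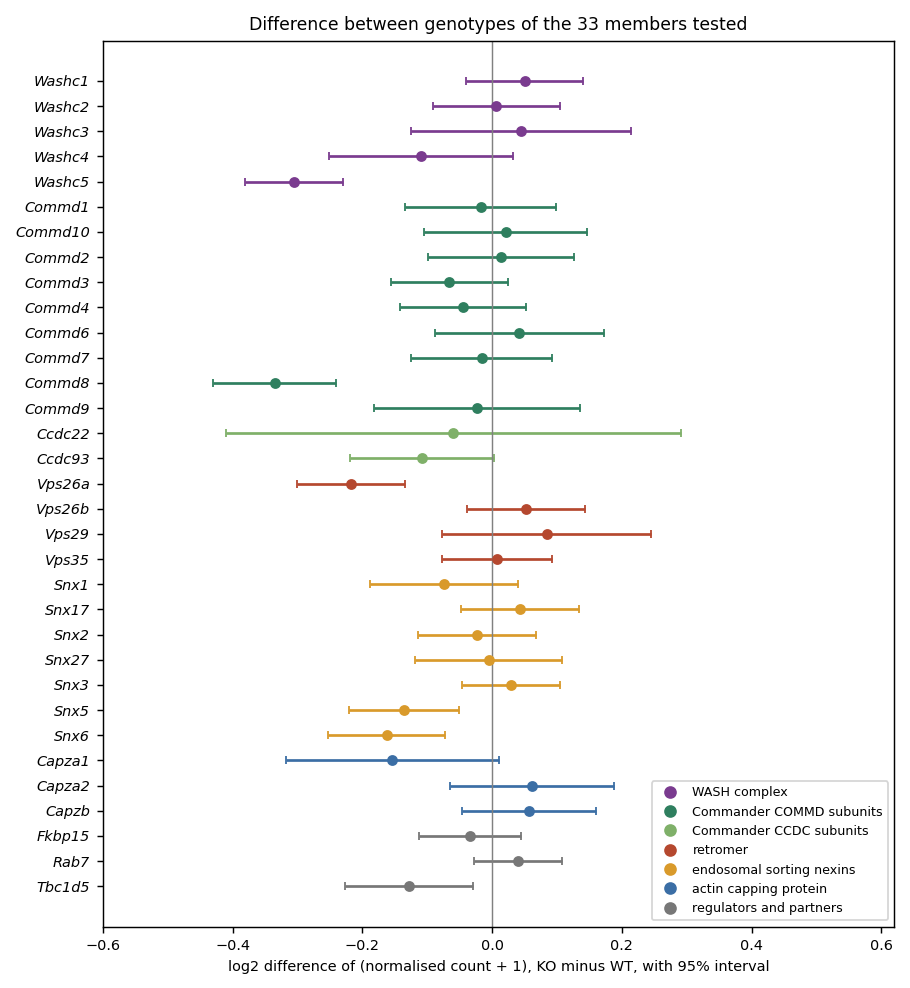
Log2 difference of (normalised count + 1), USF-1 KO minus WT, with its 95% interval from the limma fit, for the 33 genes tested, coloured by complex. Washc5, Commd8 and Vps26a stand at -0.31, -0.34 and -0.22, and the intervals of Snx5, Snx6 and Tbc1d5 also lie below 0.

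Over the 33 genes tested, 3 were lower and 0 higher past the threshold; these 3 were Washc5, Commd8 and Vps26a, which include the genes that chose the list. Among all 18221 genes tested 0.741% were lower and 0.159% higher (0.900% in either direction), and nothing is read from the comparison. On the recovered reads edgeR called the same 3 genes (0.829% of all genes) and DESeq2 5 (3.64% of the genes it gave an adjusted p), the others being Snx5 and Snx6. Without Washc5 and Commd8, whose values chose the list, 1 of the other 31 genes was past the threshold by limma, 1 had no overlap, and 4 had an unadjusted p under 0.05, beside 13.5% of all genes. The same 3 genes were those in which every KO mouse lay below every WT mouse, a pattern found in 1.08% of all genes tested; every KO mouse lay above every WT mouse in 0 of the 33 and in 0.423% of all genes. A log2 difference below 0 was found in 19 of the 33 genes and one above 0 in 14, and their median was -0.02. Of all genes tested 50.2% lay below 0, and their median was -0.00. By complex, the genes past the threshold were 1 of 5 in WASH, 1 of 9 COMMD genes, 0 of 2 CCDC genes, 1 of 4 in retromer, 0 of 7 sorting nexins, 0 of 3 capping genes and 0 of 3 regulators. Those of WASH and of the COMMD genes were Washc5 and Commd8, whose values chose the list.

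**Figure D4:**
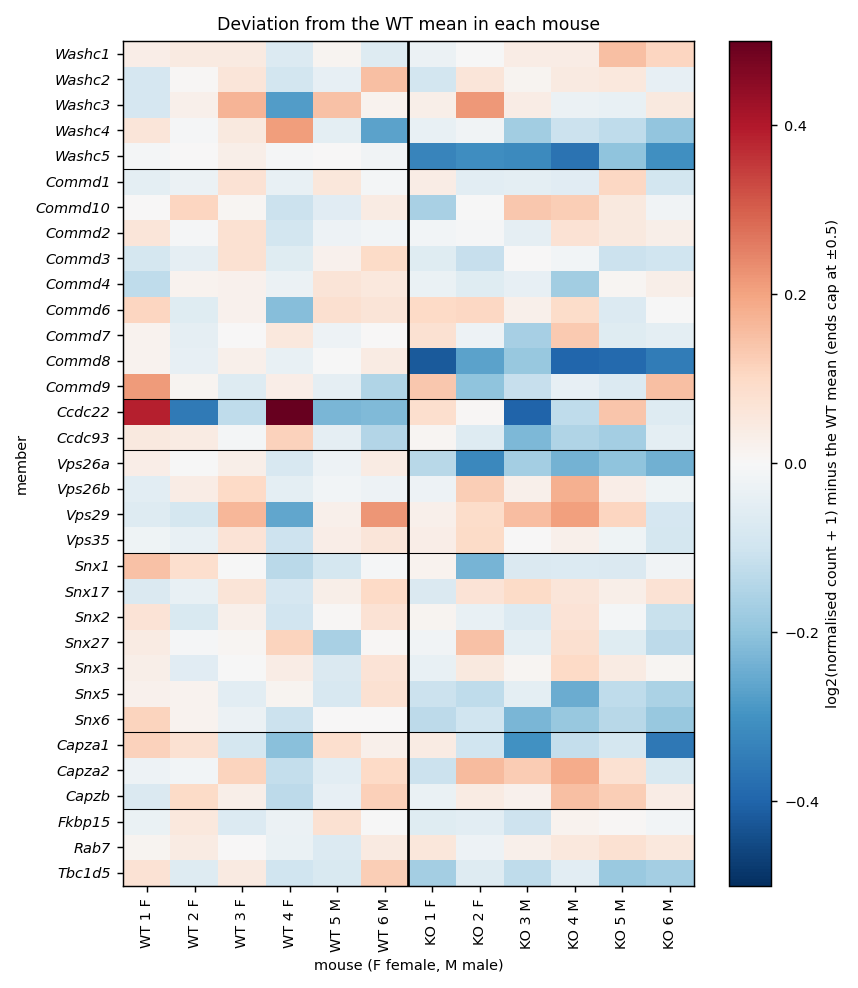
Log2(normalised count + 1) of each of the 33 genes in each mouse, minus the mean of the WT mice, with rows grouped by complex and the WT mice to the left of the thick line. Washc5, Commd8 and Vps26a are below the WT mean (blue) in all 6 KO mice, as are Washc4, Snx5, Snx6 and Tbc1d5, and the other rows mix both signs among the KO mice. The WT mean is over both sexes, and in males alone Washc4 had means of 907 in WT and 909 in USF-1 KO mice.

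The measurements were tight. The SD of the log2 values among mice of a genotype had a median of 0.0708 over the 33 genes, against 0.151 over all genes tested, and in 32 of the 33 it was under the median of all genes. The genes tested reach down to a mean of 10 normalised counts and were not matched to the 33 for level. The SD was smallest for Rab7 (0.0398) and largest for Ccdc22 (0.296). WT 4 had an oligodendrocyte marker sum of 87680, inside the range of the KO mice. Its normalised counts were 1031 for Washc5 and 909 for Commd8, within the range of the other WT mice, and 1163 for Vps26a and 707 for Snx6, the lowest of the WT mice. The part of oligodendrocyte content in these differences was not tested. Without the choroid-rich libraries WT 1 and WT 5 the log2 difference was -0.31 for Washc5 and -0.33 for Commd8. WT 5, whose Usf1 was 842, had 1037 of Washc5 and 929.9 of Commd8, within the range of the other WT mice.

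Levels between genes were compared as normalised counts per kilobase of annotated exon. In WT mice they ran from 19.1 per kilobase for Ccdc22 to 2271 for Rab7, with Snx3 (1798) and Capzb (1619) next. Within WASH, Washc2 was the highest at 435 ± 28.5, then Washc5 at 244 ± 2.75, Washc1 at 197 ± 7.26, Washc4 at 166 ± 17.7 and Washc3 at 51.6 ± 5.72 (SD, n = 6). In USF-1 KO mice Washc5 was at 198 per kilobase and Washc1 at 204. Per kilobase of the longest transcript Washc5 was at 257 and Washc1 at 265 in WT mice, and at 208 and 273.9 in USF-1 KO mice, so the order of these subunits in WT mice and the genotype in which their levels lay closer depend on the length used.

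The COMMD genes spanned from 461 ± 24.6 per kilobase for Commd3 to 39.5 ± 1.44 for Commd1 in WT mice (SD, n = 6). Commd9 at 244 ± 21.4 and Commd8 at 227 ± 5.21 did not differ beyond their spread, nor did Commd6 at 68.7 ± 5.46 and Commd2 at 67.0 ± 2.86. In the USF-1 KO Commd8 was at 180.2 per kilobase and Commd9 at 241. In retromer the order was Vps26b at 588 ± 24.0, Vps26a at 430.0 ± 13.8, Vps35 at 385 ± 17.4 and Vps29 at 301 ± 36.6, and in the USF-1 KO Vps26a was at 369.9 and Vps35 at 387. The order depends on the length used. Per kilobase of the longest transcript retromer ran from Vps26b at 839 through Vps35 at 686 and Vps29 at 549.8 to Vps26a at 453 in WT mice, which put Vps26a last, and Commd10 stood at 157 in place of 52.3, level with Commd7 at 158, and Commd9 at 329 stood apart from Commd8 at 239.

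**Figure D5:**
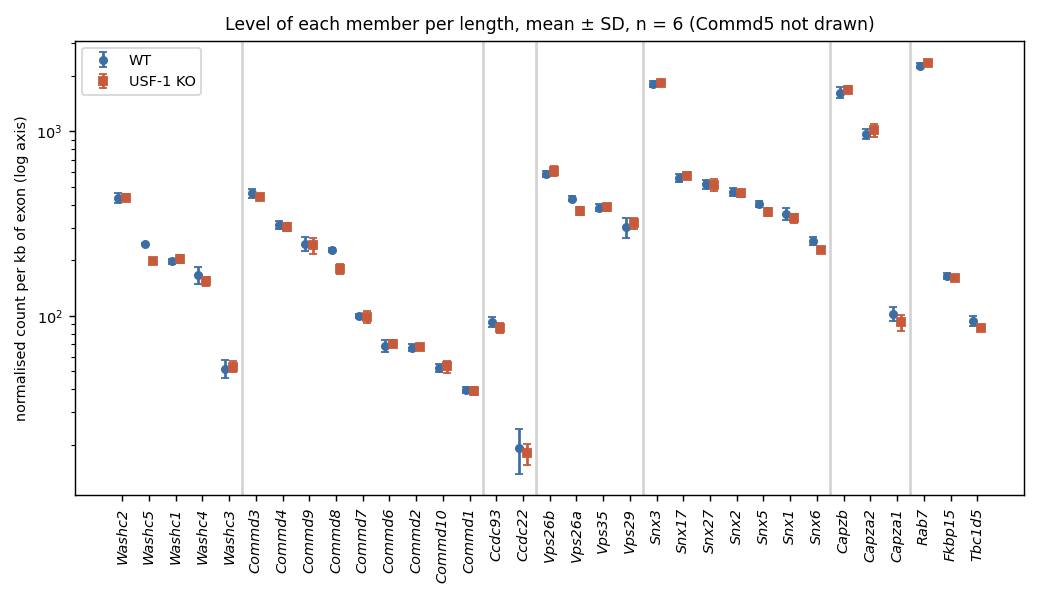
Normalised count per kilobase of annotated exon, on a log axis, as mean ± SD of 6 WT (circles) and 6 USF-1 KO mice (squares), grouped by complex and ordered by the WT level. Levels range from 19.1 for Ccdc22 to 2271 for Rab7 in WT. The mean ± SD bars of the genotypes do not meet for Washc5, Commd8, Vps26a, Snx6 and Snx5.

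The wider pathway was read from 7 further lists with 95 genes, all of them tested. Of these, 2 were lower in the USF-1 KO past the threshold and 0 higher, beside 0.741% and 0.159% of all genes tested, and 48 of the 95 lay below 0 with a median of -0.00. No gene passed among the 3 retriever and other Commander genes (-0.07 to 0.02), the 10 of the Arp2/3 complex, the 8 other activators of Arp2/3, the 14 genes of the Rab7 cycle and late endosome tethering or the 22 early and recycling endosome genes. Over the 95 genes limma gave an unadjusted p under 0.05 for 15, beside 13.5% of all genes tested. The genes that passed were 1 of 20 other sorting nexins and 1 of 18 recycled cargo receptors.

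Igf2r, the mannose 6-phosphate receptor that retromer and the sorting nexins carry back to the Golgi, stood at 1281, 1254, 1305, 1364, 1531 and 1208 normalised counts in WT 1 to WT 6 and at 858, 793, 908, 940.2, 913 and 931 in KO 1 to KO 6. The groups did not overlap, and the log2 difference was -0.57 ± 0.0592 (SE, adjusted p = 3.11e-04 by limma). Airn, an antisense gene that overlaps Igf2r and shares 0 exon bases with it, had a mean of 25.2. Snx8, a sorting nexin of early endosomes, stood at 289, 309.9, 245, 306, 248 and 263 in WT 1 to WT 6 and at 212, 198, 178, 176, 188 and 229 in KO 1 to KO 6. Every KO mouse was again below every WT mouse, with a log2 difference of -0.49 ± 0.0851 (SE, adjusted p = 0.0153 by limma). Without WT 1 the adjusted p of Snx8 was 0.0503, and without both choroid-rich libraries it was 0.0573. In 2 other genes of these lists every KO mouse lay above every WT mouse without passing the threshold: Whamm, an activator of Arp2/3, had a log2 difference of 0.19 (adjusted p = 0.0957 by limma), and Vps11, a subunit of the late endosome tethers, one of 0.13 (0.161). They were named after their values were seen. Of the 95 genes, 2 had every KO mouse below every WT mouse and 2 above, beside 1.08% and 0.423% of all genes tested.

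The genes next to Washc5 and Commd8 on the chromosome overlapped between genotypes. Nsmce2, a SUMO ligase of chromosome repair, starts 80 bases from the start of Washc5 and runs the other way. It stood at 426, 400.3, 386, 392, 389 and 428 normalised counts in WT 1 to WT 6 and at 457, 354, 382, 346, 374 and 406 in KO 1 to KO 6, a log2 difference of -0.07 (95% interval -0.21 to 0.08). Sqle, which encodes squalene epoxidase of cholesterol synthesis, ends 805 bases from the other end of Washc5. It stood at 1172, 1333, 1073, 1201, 1156 and 1271 in WT 1 to WT 6 and at 1395, 951, 1137, 1123, 1199 and 1314 in KO 1 to KO 6, with a difference of -0.02 (-0.20 to 0.15). In both genes KO 1 had the highest value of all 12 mice.

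Beside Commd8, Gabrb1, a GABA receptor subunit, lies 7538 bases away and stood at 4570.1, 4747, 4911, 5232, 4808 and 4615 normalised counts in WT 1 to WT 6 and at 4699, 5392, 4834, 5347, 4919.8 and 4608 in KO 1 to KO 6. Its log2 difference was 0.04 (95% interval -0.06 to 0.15). Atp10d, a lipid flippase, lies 35140 bases away on the other side and stood at 86.7, 68.3, 68.3, 102, 152 and 78.7 in WT 1 to WT 6 and at 95.2, 96.3, 105, 109, 101 and 90.6 in KO 1 to KO 6. WT 5, a choroid-rich library, was its highest, and the difference was 0.16 (-0.20 to 0.51). The adjusted p of the 4 neighbours ran from 0.712 to 0.929 by limma.

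Sex was not used to choose the list. With genotype in the fit, 0 of the 33 genes differed between males and females past the threshold by limma, edgeR or DESeq2, beside 0.0549% of all genes by limma and by edgeR and 0.307% by DESeq2. Unadjusted p-values under 0.05 were found by limma for 3 of the 33, beside 6.45% of all genes. They were Washc4 (log2 difference of males minus females -0.18, adjusted p = 0.552 by limma), Ccdc93 (-0.13, 0.650) and Snx27 (-0.11, 0.761), named after their values were seen. For the interaction of genotype with sex the count was 0 of 33 by each tool, beside 0.0000% of all genes by limma and by edgeR and 0.0275% by DESeq2. Unadjusted p-values of the interaction under 0.05 by limma were found for 0 of the 33 and for 3.45% of all genes. The interaction was 0.03 for Washc5 (95% interval -0.14 to 0.21), -0.02 for Commd8 (-0.23 to 0.20) and 0.00 for Vps26a (-0.19 to 0.20) on the log2 scale, so differences between the sexes within these intervals were not detectable with 2 KO females and 2 WT males.

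Set against the promoter windows, the 10 genes with CACGTG had a median log2 difference of -0.09, with 8 of 10 below 0 and Commd8 and Vps26a past the threshold. The 16 genes with a window and no CACGTG had a median of 0.03, with 7 below 0 and 0 past the threshold by limma. Among the 7 tested genes without an entry the median was -0.01, and Washc5 was the 1 past the threshold. The range was wide within the first group: Washc1 at 0.05 and Washc2 at 0.01, both with an E-box within 50 bases of a start, lay at or above 0, and Commd9 at -0.02 had an interval from -0.18 to 0.14. Snx6, at -0.16, had no CACGTG in its window. Of all genes tested 50.2% lay below 0, and 0.741% were lower past the threshold by limma. All genes tested were not split by CACGTG in this way, so the groups have no background of their own. No test was made of these groups, since the list was chosen on this comparison. Commd8 in the first group and Washc5 in the last are the genes whose values chose it.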

How the data were processed

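Hippocampal total RNA of 12 mice was sequenced with 1 library per mouse. For the deposited signal, the authors aligned reads with STAR on the Illumina Basespace platform and scaled the reads per gene by DESeq2 size factors. The submitters' processing notes list STAR 2.5.0a, edgeR 3.22.2 and mm10; the counter, annotation and strand setting are not given in the sources used here. Coordinates of 98.8% of the 55487 genes were those of GENCODE M21. In every library 100% of values were whole multiples, within 0.01, of the value of 1 read, which gave back the reads. Genotype and sex were taken from the sample labels, whose sexes differ from those in the study's legend.

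The fit used limma 3.58.1 (R 4.3.3) with its trend option and no term but genotype. It took log2 values of the normalised count plus 1 for genes whose mean was 10 or more. Tests were two-sided, adjusted by Benjamini-Hochberg, with 0.05 as threshold. Log2 differences are on this scale and understate changes of low genes. Sex was tested with genotype in the fit, and their interaction in a model with both. The steps were tested on simulated counts. Alternatives were pseudocounts of 0.5 and 5, no limit or a mean of at least 50, libraries set to the same total, quantile normalisation, limma without trend, recovered reads tested with edgeR 4.0.16 (quasi-likelihood, TMM) or DESeq2 1.42.0, sex as a covariate, each sex alone, 0.1 as threshold and the omission of each mouse in turn.

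The members and lists were chosen with earlier results of these data known. Values in every mouse were given for Washc5 and Commd8, for members past the threshold and the 2 next by adjusted p, for Usf1, for the nearest neighbours of Washc5 and Commd8 and for pathway genes past the threshold; Vps26b was added after its values were seen. Stretches of 75 bases shared between annotated transcripts were counted in GENCODE M21. Of the other marker lists, 5 oligodendrocyte precursor, 8 astrocyte, 7 endothelium, 8 choroid plexus, 8 inhibitory neuron and 8 excitatory neuron markers had 0 past the threshold by limma.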

Additional observations from a re-analysis of the deposited data

Results flagged for a closer look

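In 66 groups of 6 mice (33 genes in 2 genotypes), 2 held a mouse whose gap to the nearest of the others, divided by the range of the group, was above Dixon's 95% critical value. Chance gives about 1 in 20 such groups, or 3.3 of 66. Both were in the USF-1 KO group and in genes of the WASH complex. Washc3 was at 271 normalised counts in KO 2, with the other KO mice between 227 and 241. Washc5 was at 902 in KO 5, with the other KO mice between 802 and 838. KO 5 still lay below the lowest WT mouse, and without it the log2 difference of Washc5 was -0.33 in place of -0.31.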

How the results depend on the processing

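Counts of the 33 genes past the threshold for genotype were within 1.5 times the count of 3 in 23 of 26 alternatives. DESeq2 gave 5 (with Snx5 and Snx6), females alone 0 and males alone 0, in fits with 6 mice each, and leaving out each mouse gave 2 to 4. The median over the members stayed between -0.04 and -0.00, Washc5 between -0.33 and -0.29 and Commd8 between -0.36 and -0.32 in all 25 alternatives. Vps26a kept its call in 21 of 25; its difference was -0.23 (adjusted p = 0.976 by limma) in females alone and -0.22 (0.242) in males alone, and the others that lost it, without WT 1 and without the choroid-rich libraries, stand above. The range of its adjusted p over all alternatives was 7.63e-05 to 0.976. Igf2r lost its call in females alone (adjusted p = 0.0601) and males alone (0.113), and Snx8 in both as well (0.875 and 0.314). Snx6 passed without WT 4 (0.0289). The alternative without the choroid-rich libraries was chosen after seeing the data. For sex and for the interaction the count of members was 0 in all 22 alternatives each; where a mouse left out leaves 1 of a genotype and sex, that mouse is assumed to vary like the others.

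Over all genes the count of 164 moved to 611 with DESeq2, 109 without the trend, 98 with sex as a covariate, 4 in females, 6 in males, 59 without the choroid-rich libraries, and to between 64 (without WT 1) and 515 (without WT 4). The share of promoters with the motif was 88.5% for CANNTG and 7.69% for CTCGAG in place of 38.5% for CACGTG. No paired analysis was possible because the labels give no number or litter shared between WT and USF-1 KO mice. Counts that overlap another gene on the opposite strand (Commd1, Vps29, Vps35, Snx5, Snx17, Capza1, Rab7) cannot be told apart from it if strand was not used. The same holds for Washc2, Ccdc22 and Ccdc93, whose opposite-strand genes had low means of 0.849 (Gm44103), 3.18 (Foxp3) and 0 (Gm15392) normalised counts.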
